A study of Mus musculus with 5 samples.

Results

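The endothelial lineage transcription factors described here are Gata2, Erg, Fli1, Ets1, Sox7, Sox17, Sox18, Tal1, Foxf2 and Foxq1, 10 genes of the 34615 symbols in the data. They were chosen by name as factors that specify or maintain endothelial cells, and the rule uses no measured value. However, the study had reported Gata2 as lower in Ins2-AKITA mice from these same libraries, with a different test. The direction of Gata2 here is therefore not independent evidence. The size also differs: the study's WT level for Gata2 was close to the WT mean of the deposited values. Its Ins2-AKITA level was below the deposited Ins2-AKITA mean of 10.9 FPKM and close to that of Ins2-AKITA replicate 2 alone, 6.15 FPKM. The reason for this was not tested. The measurements were made in brain microvascular fragments of 5 male mice on a C57BL6 background, aged between 26 and 38 weeks. The groups were 3 wild-type (WT) littermates and 2 heterozygous Ins2-AKITA mice, which carry a mutated copy of the insulin gene Ins2, make too little insulin and become hyperglycemic, and the comparison asked what long-standing hyperglycemia does to the transcriptome of brain vessels. The Ins2 change is a point mutation present in every cell, so expression values do not check the genotype labels: Ins2 was listed at 0 FPKM in 4 mice and at 1.51 in WT replicate 3. Fragments were pulled from collagenase-treated brain with magnetic beads against PECAM1, an endothelial surface protein, and they carry pericytes and astrocyte end-feet along with the endothelium. Each mouse gave 1 library, and in such a bulk library fewer endothelial cells and less RNA per endothelial cell cannot be told apart.

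The 10 factors fall into a few DNA-binding families. ERG, FLI1 and ETS1 are ETS proteins, which bind a GGAA core found in many endothelial enhancers and promoters and keep junction and receptor genes active. GATA2 binds GATA sites, and TAL1, a basic helix-loop-helix protein, binds E-boxes with its partners. Together with FLI1 these form a circuit of mutual activation that is shared between endothelium and blood progenitors. SOX7, SOX17 and SOX18 are the SOXF group, which acts in arterial and lymphatic specification, and FOXF2 and FOXQ1 are forkhead factors enriched in brain vessels, FOXF2 being known also in brain pericytes.

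The promoter windows of Gata2, Sox17, Tal1 and Foxq1 are shown because these 4 had the largest ratios of the WT mean to the Ins2-AKITA mean. Each window is the 250 bases just before the most upstream annotated start in NCBIM37 with GENCODE vM1, read 5′ to 3′ on the gene's strand. Capitals mark a match to the letters searched for each of the families described above, which are given below. The positions are chr6:88143635-88143884 on the plus strand for Gata2, chr1:4486495-4486744 on the minus strand for Sox17, chr4:114728781-114729030 on the plus strand for Tal1 and chr13:31649789-31650038 on the plus strand for Foxq1.
Gata2: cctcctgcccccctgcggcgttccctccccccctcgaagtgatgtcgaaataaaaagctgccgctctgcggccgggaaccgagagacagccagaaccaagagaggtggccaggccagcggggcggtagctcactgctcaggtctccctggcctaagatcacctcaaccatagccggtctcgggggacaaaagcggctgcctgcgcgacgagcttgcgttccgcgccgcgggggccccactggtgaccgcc
Sox17: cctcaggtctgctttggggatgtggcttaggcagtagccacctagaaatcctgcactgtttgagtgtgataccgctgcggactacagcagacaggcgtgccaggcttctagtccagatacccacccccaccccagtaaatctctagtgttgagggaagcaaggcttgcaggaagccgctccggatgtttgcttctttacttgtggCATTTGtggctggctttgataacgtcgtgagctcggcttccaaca
Tal1: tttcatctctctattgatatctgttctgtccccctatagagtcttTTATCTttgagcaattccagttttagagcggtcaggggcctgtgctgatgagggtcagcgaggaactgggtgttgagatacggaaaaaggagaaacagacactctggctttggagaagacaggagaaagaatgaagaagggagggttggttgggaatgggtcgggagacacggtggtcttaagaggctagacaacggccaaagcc
Foxq1: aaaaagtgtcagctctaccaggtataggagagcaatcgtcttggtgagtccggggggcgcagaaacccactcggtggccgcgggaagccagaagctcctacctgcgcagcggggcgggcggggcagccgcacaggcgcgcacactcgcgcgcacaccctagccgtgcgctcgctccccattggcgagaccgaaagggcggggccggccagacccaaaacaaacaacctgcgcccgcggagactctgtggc

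The motifs were searched on both strands as CGGAAG for ETS proteins, AGATAA for GATA proteins, ACAAAG or ACAATG for SOX proteins, TGTTTAC for forkhead proteins and CANNTG for E-boxes. None of the 10 windows held the ETS, SOX or forkhead letters, which stood in 15.9%, 22.8% and 2.74% of the windows of 22375 protein-coding genes. AGATAA, on either strand, stood in 1 of the 10 windows, that of Tal1, 205 bases before the start, against 9.33% of all windows. E-boxes stood in 5 of the 10, those of Ets1, Sox7, Sox17, Foxf2 and Sox18, which held 2, against 63.5% of all windows, and the E-box of Sox17 lay 45 bases before its start. Base composition differed between the windows. Gata2 and Foxq1 both had 67.2% G and C, with 22 and 26 CpG dinucleotides, whereas Tal1 had 48.8% and 6, and the medians over all windows were 54% and 8. A match describes letters and not a bound site, and the absence of a match applies to this window and to these letters alone. The letters searched are narrower than the cores named above, since the Sox17 window holds both GGAA and GATA in lower case.

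The libraries were shallow as counted in the deposited values, for which the study had filtered duplicated reads. The FPKM steps of genes with low values corresponded to between 1127674 and 1319540 counted fragments in 4 mice and to 2847605 in WT replicate 3. FPKM counts fragments relative to transcript length and library size. Summed over all genes, FPKM ran from 1531575 to 13025905 per mouse, highest in WT replicates 1 and 2, whereas the sum over protein-coding genes ran only from 388605 to 421601, so that rescaling to the full sum (TPM) shifted the all-gene median of the log2 fold changes from -0.03 to 1.07. The 12 endothelial markers were detected in every group, with a summed level of 543 to 887 FPKM in WT and 438 to 548 in Ins2-AKITA mice and Cldn5, a tight junction gene, the highest. Markers of neurons (636 to 755 FPKM over all mice, Slc17a7 highest) and oligodendrocytes (1866 to 2541, Mbp highest) were also present, so the fragments were not purely vascular. Across the 16286 genes tested with limma, 4 passed an adjusted p of 0.05 as lower in Ins2-AKITA mice (Gm14889, Gm17592, SNORA13 and Snora47, all listed at 0 in both of these mice) and 0 as higher, with 477 lower and 249 higher at an unadjusted p under 0.05; TPM gave 30 lower and 58 higher past the adjusted threshold.

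All 10 factors were detected in all 5 mice, and all 10 passed the filter of a mean of 1 FPKM. In WT mice Erg had the highest level of the 10, with a mean of 28.2 ± 3.68 FPKM (SD, n = 3), followed by Gata2, Ets1, Sox17, Sox18, Fli1, Foxq1, Foxf2, Sox7 and Tal1, which had the lowest at 1.72 ± 0.23. Only between Foxf2 and Sox7 did the WT ranges of neighbours in this order not touch. Erg was above every other member in each WT mouse, but the order from Gata2 to Foxf2 is not fully resolved by these mice. Within it, Sox18 was below Sox17 in every WT mouse. The mean of Erg over the 5 mice lay at percentile 77.0 of all genes tested, that of Sox7 at percentile 25.6 and that of Tal1 at percentile 6.53. The factors also differed in how evenly the WT mice expressed them. The highest WT value was 1.24 times the lowest for Fli1, 1.30 for Erg and 1.31 for Tal1, but 2.2 for Gata2, 3.46 for Ets1 and 6.85 for Sox7, in both of the last cases with WT replicate 1 the lowest of all mice.

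**Figure D1:**
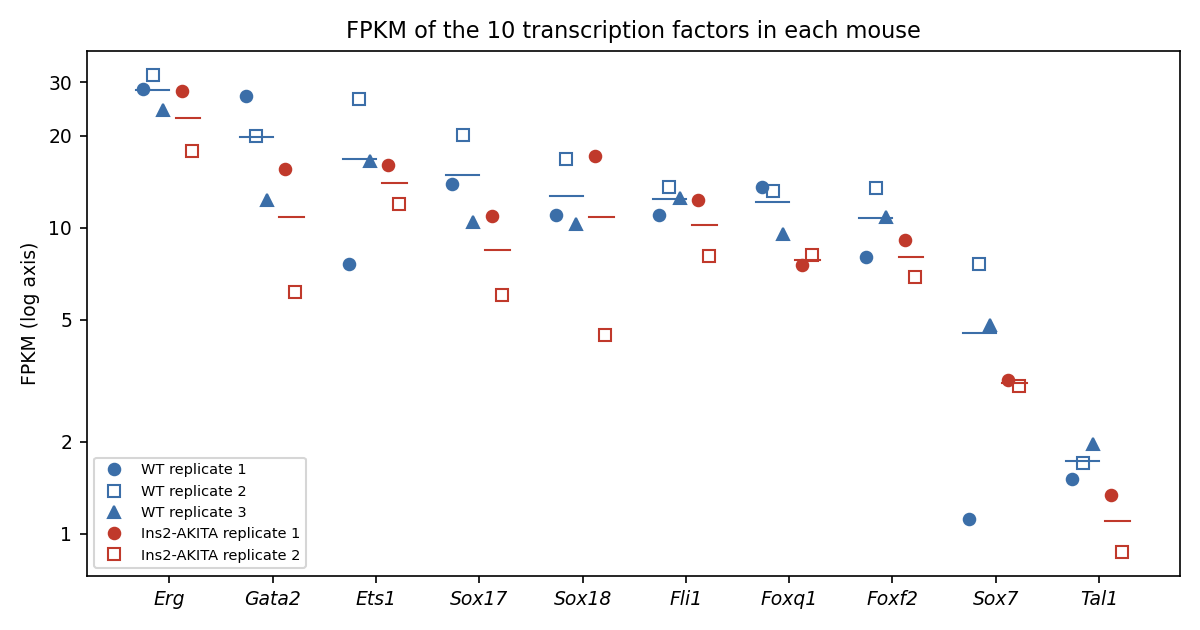
FPKM (log axis) of each factor in each mouse, with blue for WT, red for Ins2-AKITA and a bar at each group mean. Foxq1 and Tal1 are the 2 factors whose Ins2-AKITA points both lie below all WT points, and Ets1 and Sox7 are lowest in WT replicate 1.

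None of the 10 factors differed between the genotypes past an adjusted p of 0.05 in either direction (limma), against 0.0246% of all genes called lower and 0% called higher. At an unadjusted p under 0.05 the count was also 0 of 10, against 2.93% of all genes lower and 1.53% higher. The smallest adjusted p among the 10 was 0.90. All 10 log2 fold changes nevertheless lay below 0 in the FPKM as deposited, against 53.5% of all genes. Their median was -0.37 against -0.03 for all genes. With TPM all 10 lay above 0, but so did the median of all genes, at 1.07, against 0.79 for the members. In the FPKM as deposited, Ins2-AKITA replicate 2 had the lowest of the 5 values in 7 of the 10, which held for 23.2% of all genes. The 10 directions thus rest on the same few mice and are not 10 separate observations. Both Ins2-AKITA values lay below every WT value for 2 of the 10, against 10.3% of all genes, and in no factor did both lie above, against 9.24%. The first of these counts depended on the mice included. It was 8 without Ins2-AKITA replicate 1, where 27.9% of all genes separated in this direction, 6 without WT replicate 1 (15% of all genes) and 5 without WT replicate 3 (23.5%). It was 0 with TPM (0.632% of all genes) and with the endothelial scaling described below (2.55%).

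Erg, the ETS factor needed to maintain vascular integrity and VE-cadherin expression, lies at chr16:95580776-95808200 on the minus strand. It had 28.5, 31.7 and 24.4 FPKM in WT against 28.04 and 17.8 in the Ins2-AKITA mice. Of the Ins2-AKITA mice, replicate 1 fell among the WT values and replicate 2 below them. The means were 28.2 ± 3.68 (n = 3) and 22.9 ± 7.24 (n = 2), with a log2 fold change of -0.31 with a standard error of 0.26 and a 95% interval from -0.94 to 0.31 (limma, adjusted p = 0.90). The value was -0.63 without Ins2-AKITA replicate 1 and -0.001 without Ins2-AKITA replicate 2, so that the latter mouse carried it.

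Fli1, the closest relative of Erg and the ETS arm of the circuit with Gata2 and Tal1, lies at chr9:32229793-32348974 on the minus strand. Its 3 WT values, 10.99, 13.7 and 12.5 FPKM, were the most even of the 10 factors. In Ins2-AKITA mice it had 12.3 and 8.10 FPKM, the first inside and the second below the WT range. The log2 fold change was -0.28 (SE 0.27, 95% interval -0.93 to 0.37, limma adjusted p = 0.90). As for Erg, this rested on Ins2-AKITA replicate 2, without which it was -0.005, against -0.55 without Ins2-AKITA replicate 1.

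Ets1, an ETS factor induced in sprouting endothelium and also expressed in lymphocytes, starts 94831 bases beyond Fli1 and is transcribed in the opposite direction (chr9:32443806-32565405, plus strand). It had 7.62, 26.3 and 16.5 FPKM in WT against 16.1 and 11.98 in the Ins2-AKITA mice, so that both Ins2-AKITA values lay inside the WT range. The log2 fold change was -0.11 (SE 0.49, limma adjusted p = 0.98), and it became 0.28 without WT replicate 2 and 0.09 without Ins2-AKITA replicate 2. In none of the 3 ETS members did the groups separate.

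Gata2 (chr6:88143885-88157024, plus strand), the GATA factor of endothelium that supports expression of endothelial and blood progenitor genes, had the largest difference of the 10. It had 27.1, 20.05 and 12.3 FPKM in WT against 15.6 and 6.15 in the Ins2-AKITA mice. The groups overlapped, since Ins2-AKITA replicate 1 exceeded WT replicate 3. The means were 19.8 ± 7.39 (n = 3) and 10.9 ± 6.65 (n = 2), a ratio of 1.83. On the log2 scale the difference was -0.87 with a standard error of 0.46 and a 95% interval from -1.99 to 0.25 (limma, adjusted p = 0.90). The exact permutation test over the 5 mice gave p = 0.3, where the smallest p it can give is 0.1. A single mouse moved the value strongly, to -1.48 without Ins2-AKITA replicate 1 and to -0.26 without Ins2-AKITA replicate 2.

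Sox17 (chr1:4481009-4486494, minus strand), the SOXF factor of arterial endothelium that acts with Notch and Wnt signalling, came next. It had 13.9, 20.2 and 10.4 FPKM in WT against 10.96 and 6.03 in the Ins2-AKITA mice. As for Gata2, Ins2-AKITA replicate 1 lay just above WT replicate 3 and replicate 2 was the lowest mouse. The means were 14.9 ± 4.96 (n = 3) and 8.50 ± 3.49 (n = 2), and the log2 fold change was -0.74 (SE 0.37, 95% interval -1.64 to 0.15, limma adjusted p = 0.90). Leaving out 1 mouse at a time gave values from -1.13 to -0.36.

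Sox18 (chr2:181404541-181406345, minus strand), known for its part in lymphatic and vascular development, was split between the Ins2-AKITA mice. It had 11.1, 16.8 and 10.3 FPKM in WT against 17.2 and 4.47 in the Ins2-AKITA mice, which were the highest and the lowest of all 5 values. The log2 fold change of -0.43 (SE 0.53, limma adjusted p = 0.91) became -1.30 without Ins2-AKITA replicate 1 and 0.43 without Ins2-AKITA replicate 2. Its sign thus depended on which Ins2-AKITA mouse was kept.

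Sox7 (chr14:64562511-64569569, plus strand), the remaining SOXF gene, had the lowest level of the group of 3, at 1.11, 7.64 and 4.80 FPKM in WT against 3.18 and 3.04 in the Ins2-AKITA mice. Both Ins2-AKITA values lay within the WT range. The log2 fold change was -0.20 (SE 0.63, limma adjusted p = 0.97), and it became 0.23 without WT replicate 2. Its 95% interval, from -1.72 to 1.31, was the widest of the 10.

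Tal1 (chr4:114729031-114744360, plus strand), which drives blood formation and is also expressed in endothelium, had the lowest level of the 10. It was measured at 1.504, 1.70 and 1.97 FPKM in WT against 1.33 and 0.87 in the Ins2-AKITA mice, so that the groups did not overlap. These values rest on an estimated 4.7 to 23.3 fragments per mouse. The log2 fold change was -0.38 (SE 0.45, 95% interval -1.47 to 0.71, limma adjusted p = 0.91), and the exact permutation test gave p = 0.1, the smallest p that 3 against 2 mice allow. Without Ins2-AKITA replicate 2 the log2 fold change was -0.22.

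Foxq1 (chr13:31650039-31652839, plus strand), a single-exon forkhead gene enriched in brain endothelium, was the other factor without overlap. It had 13.6, 13.2 and 9.54 FPKM in WT against 7.58 and 8.16 in the Ins2-AKITA mice. The means were 12.1 ± 2.26 (n = 3) and 7.87 ± 0.41 (n = 2), a ratio of 1.54, and the log2 fold change was -0.55 (SE 0.26, 95% interval -1.18 to 0.08, limma adjusted p = 0.90). Its unadjusted limma p of 0.076 was the smallest of the 10, and the exact permutation test on the log2 values gave p = 0.2. Foxq1 shares 1164 exon bases with A530084C06Rik on the opposite strand, which had 0 to 1.42 FPKM in the 5 mice, and the use of strand in the counting is not stated.

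Foxf2 (chr13:31717685-31723272, plus strand) lies 64845 bases beyond Foxq1 and is known for its part in the development of the blood-brain barrier. It had 8.01, 13.5 and 10.8 FPKM in WT against 9.13 and 6.92 in the Ins2-AKITA mice, with Ins2-AKITA replicate 1 inside the WT range and replicate 2 below it. The log2 fold change was -0.37 (SE 0.30, 95% interval -1.09 to 0.36, limma adjusted p = 0.90), and it became -0.19 without Ins2-AKITA replicate 2 and -0.21 without WT replicate 2. Foxc1, a further forkhead gene of the same cluster, lies 175242 bases beyond Foxf2. It had 18.9, 19.1 and 12.59 FPKM in WT against 12.49 and 9.71 in the Ins2-AKITA mice, with a log2 fold change of -0.55 (SE 0.28, limma adjusted p = 0.90). The Foxc1 groups did not overlap, as for 10.3% of all genes in this direction, but WT replicate 3 and Ins2-AKITA replicate 1 nearly met.

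The 5 members with a single annotated transcript, Fli1, Sox7, Sox18, Foxf2 and Foxq1, gave estimates at or near whole numbers of fragments (the farthest was Fli1 in WT replicate 3, at 102.9), which were rounded so that their counting error could be set beside the spread between mice. For Sox7 in WT, 4 fragments in replicate 1 gave a 95% Poisson interval of 0.304 to 2.85 FPKM and 31 fragments in replicate 2 gave 5.19 to 10.8, so these mice differed by more than counting error. The same held for Sox18 in the Ins2-AKITA mice, where 27 fragments gave 11.3 to 24.98 FPKM in replicate 1 and 8 fragments gave 1.93 to 8.80 in replicate 2. For Foxq1 the interval of each Ins2-AKITA mouse, 4.75 to 11.5 and 5.37 to 11.9 FPKM, overlapped those of all 3 WT mice, which together ran from 7.44 to 18.5. These intervals cover counting error only. Duplicated reads had been filtered in the study, but the fragments are amplified and carry no molecular identifiers.

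**Figure D2:**
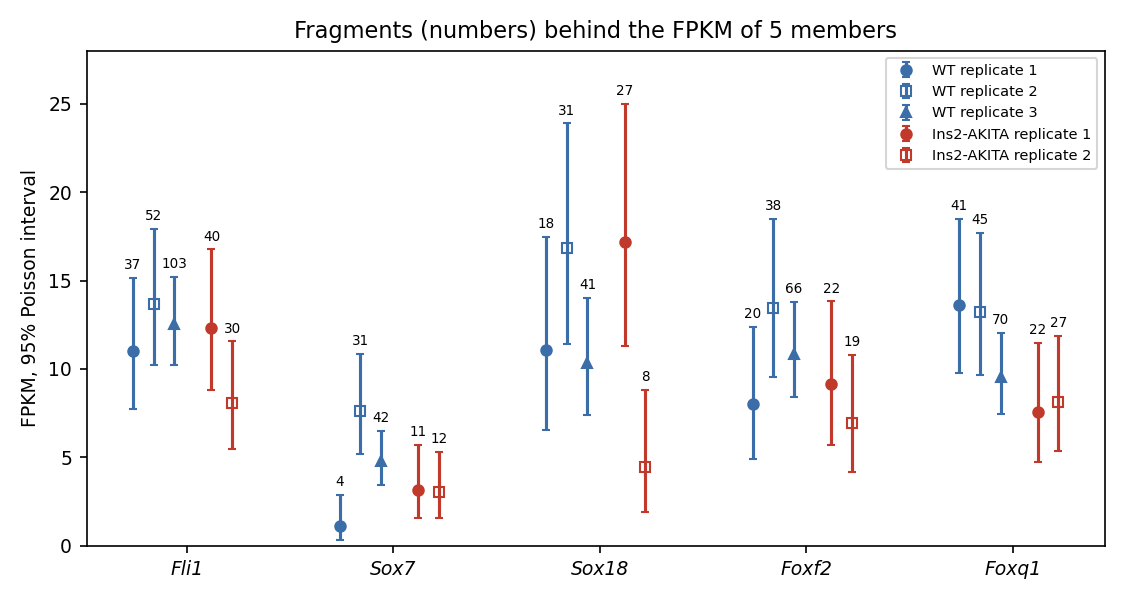
FPKM with exact 95% Poisson intervals for the 5 members with 1 annotated transcript, in each mouse, with the number of fragments printed above each bar. The Sox7 intervals of WT replicates 1 and 2 and the Sox18 intervals of the 2 Ins2-AKITA mice do not overlap, whereas those of Foxq1 all do.

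Of the 12 endothelial markers, most had lower means in the Ins2-AKITA mice, like the members, in the FPKM as deposited, and none of them passed an adjusted p of 0.05 (limma). Their geometric mean was 42.6, 60.5 and 39.6 FPKM in WT against 38.2 and 30.5 in the Ins2-AKITA mice, so that both Ins2-AKITA mice lay below all WT mice, and 11 of the 12 had a log2 fold change below 0, with a median of -0.43. After each mouse was scaled to the same endothelial marker level, 5 of the 10 members lay below 0 and 5 above, and their median was 0.01 against 0.36 for all genes. Pecam1, Cdh5, Tie1, Tek, Esam, Emcn, Cldn5 and Flt1 are also listed below as genes that the members bind or regulate. A change shared by the members and these markers is therefore reduced by this scaling, whatever its source. Erg was 66.9%, 52.5% and 61.6% of the endothelial marker mean in WT against 73.5% and 58.4% in the Ins2-AKITA mice, with replicate 1 of Ins2-AKITA above the WT range and replicate 2 inside it, and its log2 fold change on this scale was 0.12. Gata2 kept a value below 0, with 63.6%, 33.1% and 31.1% in WT against 40.8% and 20.2% in the Ins2-AKITA mice and a log2 fold change of -0.46 (SE 0.45, limma adjusted p = 0.69). Sox17 likewise had 32.7%, 33.4% and 26.4% in WT against 28.7% and 19.8% in the Ins2-AKITA mice, with a log2 fold change of -0.33 (SE 0.36, limma adjusted p = 0.72). Relative to endothelial markers, Ins2-AKITA replicate 2 was therefore still the lowest mouse for Gata2 and Sox17, and the Ins2-AKITA values of both overlapped the WT values. The part of endothelial RNA content in the members' lower means was not tested.

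**Figure D3:**
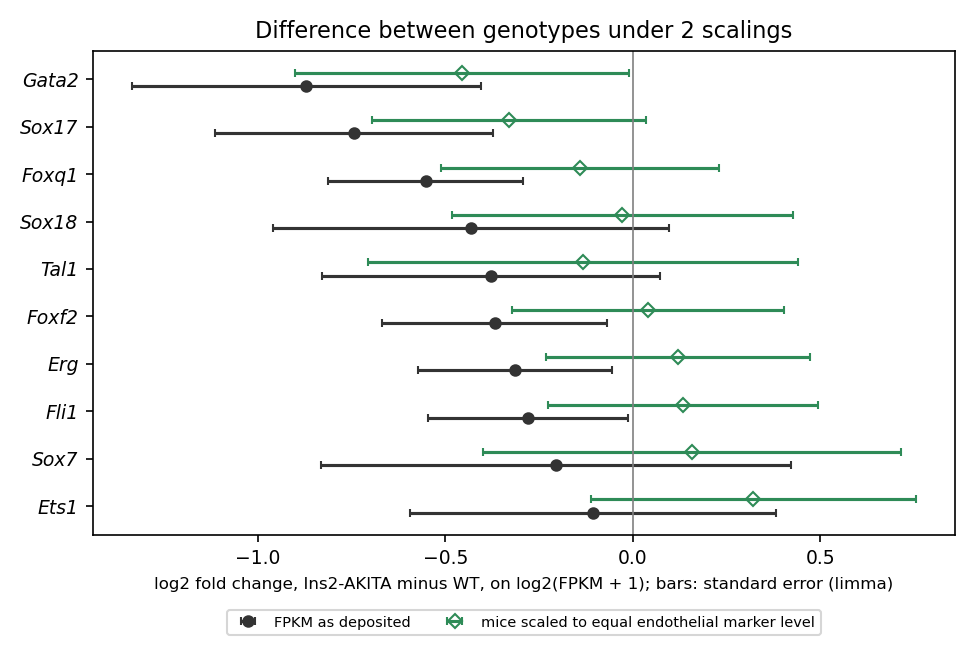
Log2 fold change of each factor, Ins2-AKITA minus WT, on log2(FPKM + 1) as deposited (black) and with the mice scaled to an equal endothelial marker level (green), with standard errors from limma. All 10 black points lie below 0, and 5 of the 10 green points lie above 0. With TPM (not drawn) all 10 lay above 0, with a median of 0.79 against 1.07 for all genes.

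Marker sums of some other cell types stood apart between the groups as well, in the FPKM as deposited. Astrocyte markers, led by the glutamate transporter Slc1a2, summed to 1573 to 2327 FPKM in WT and 2710 to 3093 in Ins2-AKITA mice, with 7 of 7 log2 fold changes above 0. Slc1a2 weighs heavily in this sum, with 1013, 1449 and 1507 FPKM in WT against 1897 and 2110 in the Ins2-AKITA mice. Both Ins2-AKITA values lay above all WT values for 3 of the 7, against 9.24% of all genes. Aqp4 and Gjb6 were highest in WT replicate 3. Arterial smooth muscle markers, led by Acta2, summed to 214 to 252 FPKM in WT and 136 to 174 in Ins2-AKITA mice, with 4 of 5 log2 fold changes below 0, whereas the fifth, Myocd, had 2.17, 2.82 and 7.06 FPKM in WT against 8.44 and 6.82. Erythroid markers, led by Hba-a1, summed to 35.1 to 67.7 and 25.1 to 32.4, with 5 of 5 below 0. Both Ins2-AKITA values lay below all WT values for 4 of the 5 smooth muscle markers but for only 1 of the 5 erythroid markers, against 10.3% of all genes. Pericyte markers (Rgs5 highest) ran from 211 to 264 FPKM in WT and from 183 to 237 in Ins2-AKITA mice, which overlap. Microglial markers (Csf1r highest, 52.0 to 91.7 and 75.3 to 89.9) and fibroblast markers (Pdgfra highest, 28.7 to 33.0 and 31.3 to 36.2) overlapped too. Blood leukocyte markers, which bear on Ets1 and Fli1, summed to 2.66 to 2.69 FPKM in WT and 1.58 to 1.60 in Ins2-AKITA mice, but only Ptprc of the 6 passed the filter, the granulocyte markers Ly6g and S100a8 were at 0 in all mice, and Itgal was highest in Ins2-AKITA replicate 1 (0.774 FPKM), so that these sums rest on values near 0. The part of these cells in the members' values was not tested.

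**Figure D4:**
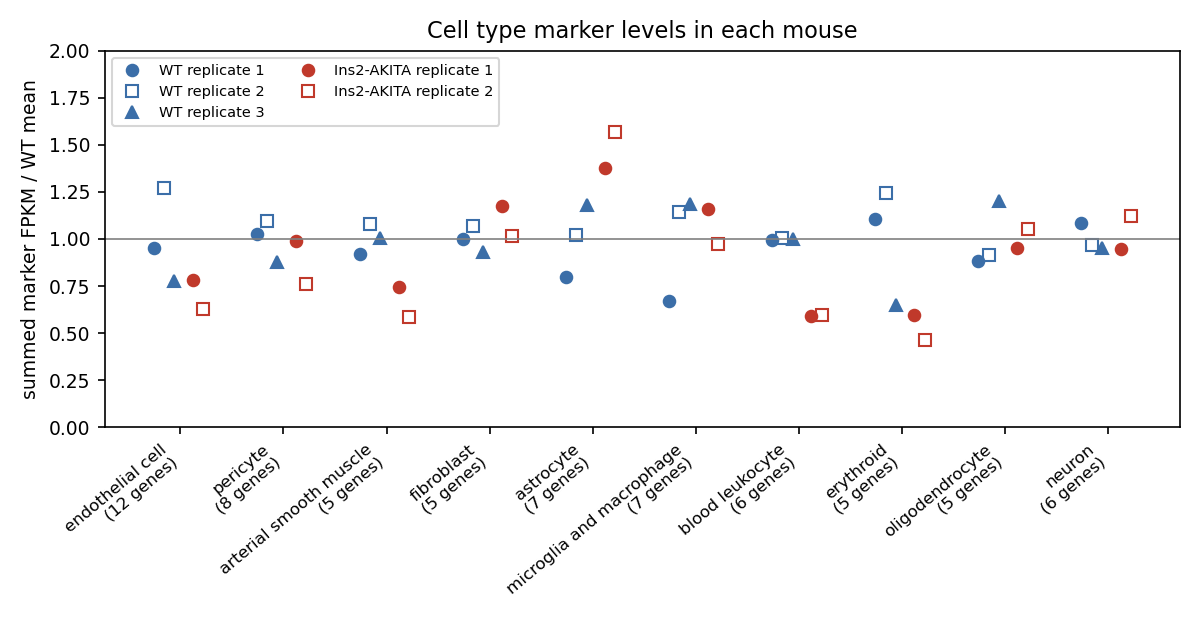
Summed FPKM of each cell type's markers in each mouse, divided by the mean of the 3 WT mice. The Ins2-AKITA mice lie above all WT mice for astrocyte markers and below them for smooth muscle, leukocyte and erythroid markers, and the endothelial sum of Ins2-AKITA replicate 1 (548 FPKM) lies just above that of WT replicate 3 (543 FPKM).

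Relatives and partners of the members were read from the same fit. Of 59 listed factors, 51 were tested and none passed an adjusted p of 0.05 in either direction (limma). At an unadjusted p under 0.05, 2 were lower and 1 higher, where the shares over all genes were 2.93% and 1.53%, so that these counts were near the background. Their log2 fold changes were below 0 in 33 (64.7%, against 53.5% of all genes) and above 0 in 18, with a median of -0.12 against -0.03. The 15 tested members of the ETS family had a median of 0.06, with 6 below 0 and 9 above, and ran from Elk3 at -0.39 (SE 0.25), a repressor of the ternary complex group, to Sfpi1 at 0.67 (SE 0.59), the gene for the myeloid factor PU.1. Ets2, the neighbour of Erg at a distance of 115481 bases, was the 1 factor higher at the unadjusted threshold, with 29.1, 29.3 and 26.9 FPKM in WT against 38.2 and 49.9 in the Ins2-AKITA mice (log2 fold change 0.60, SE 0.20, limma adjusted p = 0.90). Erg and Ets2 are a closely linked pair of ETS genes, and their differences had opposite signs in the FPKM as deposited.

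Gata2 was the only GATA gene with a substantial level. Gata1 and Gata5 were listed at 0 in all 5 mice, Gata4 and Gata6 reached at most 0.51 FPKM, and Gata3 had 1.65, 2.05 and 0.78 FPKM in WT against 0.30 and 0.26 in the Ins2-AKITA mice (log2 fold change -0.93, SE 0.55, limma adjusted p = 0.90). The 7 tested partners of the TAL1 complex had a median of 0.12 and ran from Lyl1, its closest relative, at -0.38 (SE 0.43) to Ldb1, the adaptor of the complex, at 0.26 (SE 0.23). The 7 tested forkhead genes had a median of -0.32, with 6 below 0, and ran from Foxf1a at -0.79 (SE 0.41) to Foxd1 at 0.47 (SE 0.43).

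The largest difference among the relatives was that of Klf2, a factor induced by blood flow in endothelium. It had 26.4, 26.6 and 30.1 FPKM in WT against 8.20 and 12.004 in the Ins2-AKITA mice, so that the groups were far apart, with a log2 fold change of -1.39 (SE 0.24, limma adjusted p = 0.58). At the other end of the same group of 21 stood Mef2c, which acts upstream of Klf2 and is also expressed in neurons and microglia, with 0.37 (SE 0.19). Klf4, the relative of Klf2 and named here after its values were seen, had 25.05, 19.7 and 31.7 FPKM in WT against 17.4 and 13.6 in the Ins2-AKITA mice, with a log2 fold change of -0.67 (SE 0.27, limma adjusted p = 0.90). None of these passed the adjusted threshold.

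Of 30 listed endothelial genes that the members are known to bind or regulate, 29 were tested and none passed an adjusted p of 0.05 in either direction (limma). At an unadjusted p under 0.05, 4 were lower, which were Robo4, Angpt2, Cdh5 (log2 fold change -0.58, SE 0.23) and Eng (-0.73, SE 0.22), and 0 were higher, against 2.93% and 1.53% of all genes. The log2 fold changes of 26 lay below 0 and of 3, Kdr, Nrp1 and Apln, above, and their median was -0.43, close to that of the endothelial markers, with which the list overlaps. In 21 of the 29 (72.4%, against 23.2% of all genes) Ins2-AKITA replicate 2 was the lowest mouse, and in 8 (27.6%, against 10.3%) both Ins2-AKITA values lay below all WT values. Junction and adhesion genes were below 0 in 8 of 8 and ran from Robo4, an endothelial guidance receptor that stabilizes vessels, at -0.78 (SE 0.27) to Cldn5 at -0.35 (SE 0.37). Receptors ran from Notch4 at -0.82 (SE 0.77) to Nrp1, a co-receptor for VEGF, at 0.27 (SE 0.35). Ligands and secreted proteins ran from Angpt2, the TIE2 antagonist of sprouting vessels, at -1.03 (SE 0.38) to Apln, the ligand of the apelin receptor, at 0.48 (SE 0.69).

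Angpt2 and Robo4 separated the groups, as Klf2 did. Angpt2 had 4.62, 4.998 and 3.37 FPKM in WT against 2.08 and 1.17 in the Ins2-AKITA mice, and Robo4 had 13.2, 11.3 and 10.99 in WT against 7.89 and 5.30 in the Ins2-AKITA mice. Notch4 shows how much 1 mouse can carry, since WT replicate 1 had 41.5 FPKM while the other WT mice had 10.6 and 9.50 and the Ins2-AKITA mice 17.1 and 4.30.

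**Figure D5:**
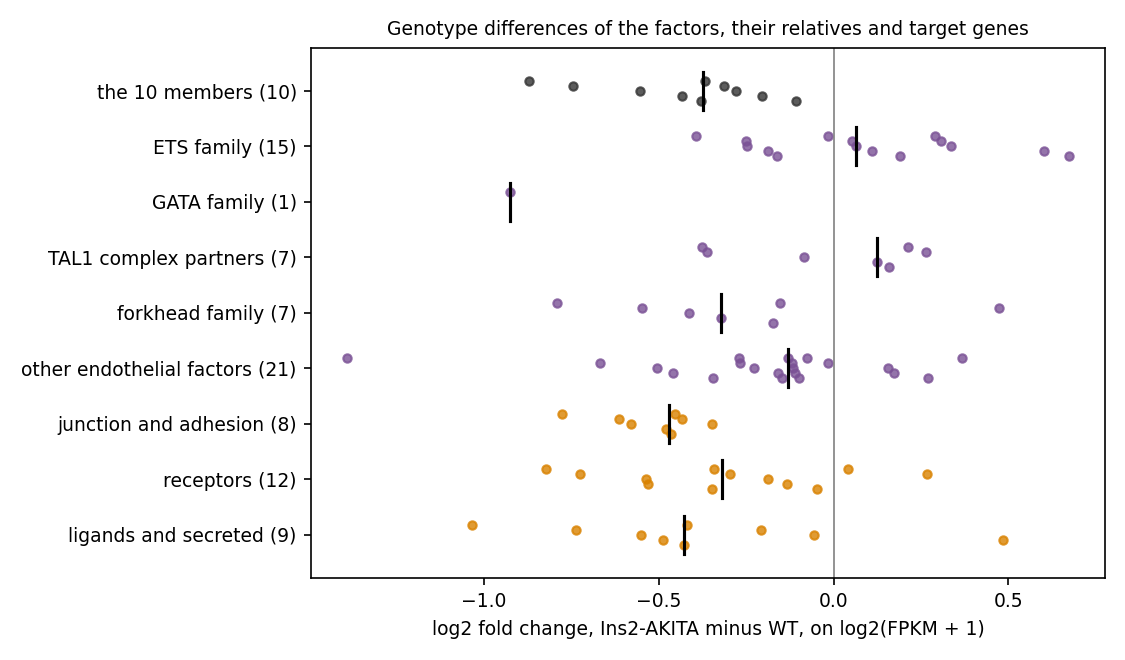
Log2 fold changes, Ins2-AKITA minus WT on log2(FPKM + 1), of the members (black), the related factors (purple) and the endothelial target genes (orange), with 1 point per tested gene, the number of genes in brackets and a vertical bar at the median. The points left of -1 are Klf2 and Angpt2, and no point passed an adjusted p of 0.05.

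The genes whose pattern over the 5 mice was most like that of each member were sought among 132 genes of the other lists, by the root mean square difference of their log2 deviations from each gene's own mean. Foxf2 had the nearest neighbour of any member in Tie1, at 0.05, followed by Ptprb at 0.07, both endothelial receptors that act on the angiopoietin pathway. Foxq1 was nearest to Pecam1 (0.09), Fli1 to Ephb4 (0.08), Tal1 to its complex partner Cbfa2t3 (0.10), Sox17 to Emcn (0.12), Sox18 to Mecom (0.13) and Ets1 to Kdr (0.14). Kdr, the main VEGF receptor, had 14.1, 41.3 and 22.9 FPKM in WT against 29.6 and 20.2 in the Ins2-AKITA mice, with the same low WT replicate 1 and high WT replicate 2 as Ets1. The nearest genes of the other 3 were not endothelial. Erg was nearest to the pericyte gene Cspg4 (0.08), Gata2 to the hemoglobin genes Hbb-b2 (0.17) and Hbb-b1 (0.22), and Sox7 to the microglial gene P2ry12, at a distance of 0.28. With 5 mice this is a description, and tested genes outside the lists could be as near. Counting Tie1 itself, 3 of all tested genes were within its distance from Foxf2, and 63, counting P2ry12, were within that of P2ry12 from Sox7.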

How the data were processed

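A ribosome-depleted total RNA library was made from the brain microvascular fragments of each of 3 WT and 2 Ins2-AKITA mice. According to the submitters' processing notes the authors used TopHat2 2.0.4, Picard 1.92 and Cufflinks 2.2.1 with NCBIM37, and the files deposited by the authors hold the FPKM of each gene in 1 mouse. Picard served to filter duplicated reads, as the study states. The annotation release and the use of strand are not given in the sources used here. Division by length inflates very short genes, and the depth is known only through the steps between low values.

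Of 37982 identifiers, 37197 matched GENCODE vM1 (NCBIM37) and 785 did not, and rows sharing a symbol were summed, leaving 34615 symbols. Each of the 10 members had 1 identifier. Symbols whose mean over the 5 mice reached 1 FPKM, 16286 in number, entered a two-sided limma 3.58.1 fit (R 4.3.3, lmFit and eBayes with a trend) of log2(FPKM + 1) on genotype alone, with Benjamini-Hochberg adjustment over all of them at 0.05. Fold changes on this scale understate those of low genes. The pipeline was tested on simulated data, in which the added genotype differences were larger than that of any member here. That test does not show whether differences of the members' size could be called with these mice. The exact permutation test, two-sided, used all 10 splits of the 5 mice. The limma p-values set each difference against the spread between these mice, moderated towards a trend over all tested genes. Python 3.11.15, numpy 2.4.6, pandas 2.3.3, scipy 1.17.1 and matplotlib 3.10.9 were used otherwise.

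Fragments per mouse were estimated from genes with 1 transcript and up to 10 fragments, after 224 to 228 bases were subtracted from the exon length, and 97.6% to 97.9% of these genes then came out whole within 0.05. Poisson intervals are at 95%. Estimated fragments of members with several transcripts are approximate.

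The members and gene lists were chosen with earlier results of these data known. The genes named were the members, the lowest and highest log2 fold change of each subgroup of the lists, any gene of a list past the adjusted threshold, the highest marker of each cell type and the 3 genes most like each member, of which those described here are the nearest; Klf4, Ets2, Cdh5, Eng, Kdr and genomic neighbours were added after their values were seen. Alternatives changed the pseudocount, the filter, the scaling, the prior variance, the summing of identifiers and the mice included.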

Additional observations from a re-analysis of the deposited data

How the results depend on the processing

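No member passed an adjusted p of 0.05 in limma, in either direction, under any alternative run, and neither did any related factor or target gene. TPM turned the direction of all 10 members, to 1.16 for Erg, 0.95 for Fli1, 1.12 for Ets1, 0.58 for Gata2, 0.52 for Sox7, 0.62 for Sox17, 0.82 for Sox18, 0.20 for Tal1, 0.82 for Foxf2 and 0.77 for Foxq1. The median with TPM was 0.79 over the members, against 1.07 over all genes. Scaling to equal endothelial markers turned the direction of 5 members, to 0.12 for Erg, 0.13 for Fli1, 0.32 for Ets1, 0.16 for Sox7 and 0.041 for Foxf2, with a median of 0.006 over the members. The members with both Ins2-AKITA values below all WT values numbered 1 with a filter at a mean FPKM of 5, which leaves Sox7 and Tal1 untested, and 0 with TPM and with equal endothelial markers. Leaving out 1 mouse at a time gave 2 to 8 such members, medians from -0.55 to -0.18, and log2 fold changes from -0.55 to 0.28 for Ets1, -0.79 to 0.23 for Sox7 and -1.30 to 0.43 for Sox18, and from -0.63 to -0.001 for Erg and -0.55 to -0.005 for Fli1. Where 1 Ins2-AKITA mouse remained, it was assumed to vary like the WT mice. Over all genes, 0 passed as lower with no pseudocount, 1 with no filter, 2 with a filter at 5, 30 with TPM and 2 with a constant prior variance, while 34, 58 and 1 passed as higher with no filter, TPM and the constant prior. Leaving out mice gave 1 to 6 lower, with 1 without either Ins2-AKITA mouse, and 0 to 10 higher, with 10 without Ins2-AKITA replicate 2. Of the alternative values for single members, 149 kept their direction and 19 did not. Replicates 1 and 2 carry the same numbers in both genotypes, but their deviations from the group means correlated at only 0.05 and -0.03, which does not show pairing. With 2 Ins2-AKITA mice these deviations are mirror images of each other. The 2 values are therefore not separate checks and cannot settle whether the mice were paired. With the replicate block, which leaves WT replicate 3 without a partner, Gata2 was at -1.16 (limma unadjusted p = 0.031, adjusted p = 0.60) and 5 genes passed as lower. At an unadjusted p under 0.05 stood also Foxq1 with no filter and without WT replicate 3, and Gata2 and Sox18 without Ins2-AKITA replicate 1. The cause of these shifts was not tested. At 4 to 12 fragments, Sox7 in WT replicate 1 and in the Ins2-AKITA mice is limited by depth. The same holds for Tal1, at an estimated 4.7 to 9.3 fragments in every mouse but WT replicate 3, and for Sox18 in Ins2-AKITA replicate 2, at 8.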
